A study of Mus musculus with 5 samples.

Results

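The 7 genes described here are the decoy TRAIL receptor genes Tnfrsf22 and Tnfrsf23, their relative Tnfrsf26, which lies beside them on mouse chromosome 7, and 4 related genes, Tnfrsf10b, Tnfsf10, Tnfrsf1a and Fas. They are 7 of the 55411 gene rows counted in the series and were found by their symbols. They were chosen from the exposed and control values of these same libraries, in which Tnfrsf23 stood out, so their differences between conditions are given as a description with no test. Polyadenylated RNA was sequenced from olfactory sensory neurons of 7-week-old mice homozygous for Olfr151tm26Mom, a targeted allele in which cells that transcribe the odorant receptor gene Olfr151 also make tau-GFP, and live nucleated GFP-positive cells were sorted from the main olfactory epithelium. The exposed mice were kept for 5 h with 5% acetophenone, an odorant, dissolved in DMSO, and the control mice with DMSO alone. All mice of both conditions carried the GFP allele and met the solvent. Control pools 1, 2 and 3 and exposed pools 1 and 3 were analysed, each of 4 mice, and exposed pool 2 was not analysed here. One label gives 200 sorted cells per pool and the protocol text gives 400.

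TRAIL, the product of Tnfsf10, is a ligand of the tumour necrosis factor (TNF) superfamily that can kill cells. It acts in the mouse through the receptor encoded by Tnfrsf10b, whose intracellular death domain recruits the adaptor Fadd and the protease Casp8. Tnfrsf22 and Tnfrsf23 bind TRAIL but have no death domain, and are therefore called decoys. Tnfrsf26 is a close relative with no known ligand that also lacks a death domain. Fas and Tnfrsf1a carry death domains and bind the ligands Fasl and Tnf, and Tnfrsf1a also signals to the transcription factor NF-kB. In bulk pools of this kind, fewer cells of a type and less RNA per cell cannot be told apart.

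Tnfrsf22 and Tnfrsf23 are similar in sequence, and this bears on what a read of 50 bases can be assigned to, so matching coding exons of Tnfrsf22 and Tnfrsf23 are shown here. The sequences are from GENCODE M21 transcripts (GRCm38), are written 5′ to 3′ along the minus strand of chromosome 7, and have the bases that differ between the 2 genes in capitals.
Tnfrsf22 exon 2, chr7:143644781-143644871: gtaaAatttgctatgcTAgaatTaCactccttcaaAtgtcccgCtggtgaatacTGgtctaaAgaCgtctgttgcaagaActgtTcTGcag
Tnfrsf23 exon 2, chr7:143681460-143681550: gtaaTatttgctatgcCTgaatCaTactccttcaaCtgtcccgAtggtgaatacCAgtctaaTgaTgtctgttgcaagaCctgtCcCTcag
Tnfrsf22 exon 3, chr7:143643276-143643404: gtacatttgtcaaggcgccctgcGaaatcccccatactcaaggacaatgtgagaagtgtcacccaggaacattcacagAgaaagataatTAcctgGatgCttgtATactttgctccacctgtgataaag
Tnfrsf23 exon 3, chr7:143679945-143680073: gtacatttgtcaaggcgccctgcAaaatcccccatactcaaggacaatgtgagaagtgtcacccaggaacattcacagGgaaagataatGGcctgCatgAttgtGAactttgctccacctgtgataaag

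Exon 2 differed at 15 of 91 bases, and the longest stretch without a difference was 13 bases. Exon 3 differed at 8 of 129 bases and held an identical stretch of 54 bases, longer than a read. Exon 4, not shown, differed at 11 of 112 bases, with an identical stretch of 30 bases. Over the annotated transcripts of Tnfrsf23, 771 of 3993 different stretches of 50 bases (19.3%) also occurred in another gene, and 719 of them in Tnfrsf22. For Tnfrsf22 this share was 27.4%, for Tnfrsf10b 6.21%, for Tnfrsf26 1.89% and for Tnfsf10 0.330%. Tnfrsf1a and Fas had none. Reads that map to several places were not counted, so the counts of both genes come from the parts in which they differ.

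Tnfrsf23 (ENSMUSG00000037613, chr7:143665809-143685872, minus strand of GRCm38, 3962 exonic bases) was listed at 0 counts in control pools 1, 2 and 3. It had 532 counts in exposed pool 1 and 440 in exposed pool 3. No control pool had a single counted read, and both exposed pools were far above the 3 counts taken here as the limit that a count of 0 allows. With library totals of 42780403 to 49527380 counts, a count of 3 equals 0.0606 to 0.0701 CPM (counts relative to the library total). CPM values scaled by edgeR's TMM factors were 12.5 and 10.6 in exposed pools 1 and 3, with a mean of 11.6 ± 1.34 (SD, n = 2). Set against 3 counts in each control library, this is at least 177-fold higher. Reads carry no molecular identifiers, so such limits cover counting error only. Scaled for exon length, the level in the exposed pools was 8.84 ± 0.654 TPM (counts divided by exon length and then scaled to the same sum in each library).

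**Figure D1:**
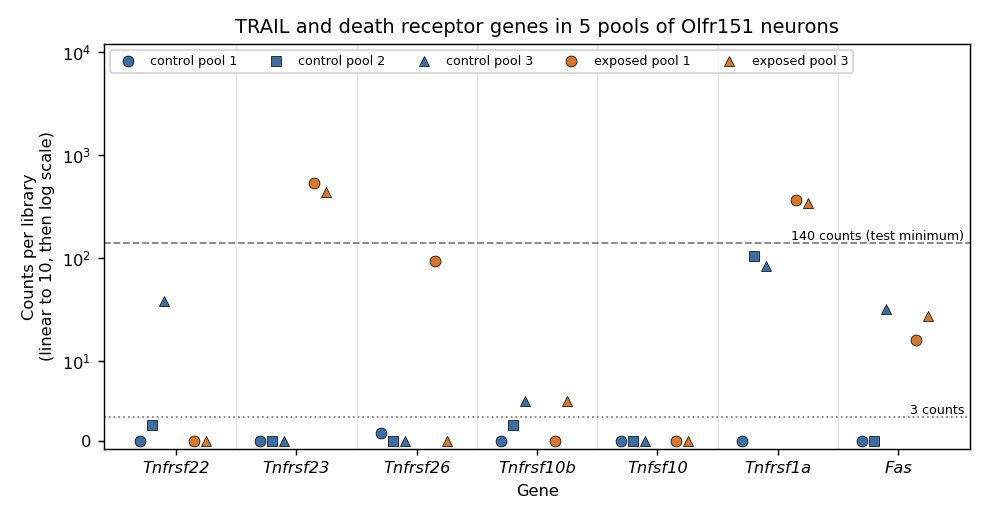
Counts of the 7 genes in each library, on an axis that is linear up to 10 and logarithmic above it, with control pools in blue and exposed pools in orange. The dotted line marks 3 counts and the dashed line the 140 counts that every library of a condition had to reach for a gene to be tested. Tnfrsf23 has 0 counts in all control pools and 532 and 440 in the exposed pools, and Tnfrsf1a is the only other member with a library above the dashed line.

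The other clustered genes did not share this pattern. Tnfrsf22 (ENSMUSG00000010751, chr7:143634806-143649661, minus strand), the second TRAIL-binding decoy, had 0 counts in control pool 1, 2 in control pool 2, 38 in control pool 3 and 0 in both exposed pools. It was thus seen above the limit only in control pool 3. Tnfrsf26 (ENSMUSG00000045362, chr7:143607659-143628722, minus strand) had 1, 0 and 0 counts in the control pools, 93 in exposed pool 1 and 0 in exposed pool 3. The conditions overlapped for both genes.

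Such presence in a single pool was common at these counts. Among genes with 80 to 120 counts in a library, 13% to 26.6% had 3 counts or fewer in another library of the same condition, over 8 ordered pairs of libraries with 652 to 742 genes each. Among genes with 300 to 600 counts this share was 0.585% to 3.22%. The 93 counts of Tnfrsf26 in exposed pool 1 therefore lie in a range in which a count of about 0 in a second pool was frequent.

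TRAIL itself was not detected, as Tnfsf10 (ENSMUSG00000039304, chr3:27317028-27342427, plus strand) had 0 counts in all 5 libraries. Its death receptor Tnfrsf10b (ENSMUSG00000022074, chr14:69767472-69784411, plus strand) had 0, 2 and 5 counts in the control pools and 0 and 5 in the exposed pools. At this depth no difference in either gene was detectable. Fas (ENSMUSG00000024778, chr19:34290666-34327772, plus strand) had 0, 0 and 32 counts in the control pools and 16 and 27 in the exposed pools. Its exposed values lie within the range of its control values.

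Tnfrsf1a (ENSMUSG00000030341, chr6:125349362-125362484, plus strand), the receptor for Tnf, had 0 counts in control pool 1, 105 in control pool 2 and 83 in control pool 3, against 366 in exposed pool 1 and 345 in exposed pool 3. All exposed pools were above all control pools. The mean level of the control pools was 1.32 ± 1.16 scaled CPM (SD, n = 3) and that of the exposed pools 8.47 ± 0.200 (SD, n = 2), a ratio of 6.42. Control pool 1, at 0 counts, carried part of that ratio. The log2 fold change estimated by edgeR was 2.68 with all libraries and 2.10 without that pool.

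By length-scaled level, the order in the exposed pools was Tnfrsf1a (9.92 ± 0.183 TPM), Tnfrsf23 (8.84 ± 0.654 TPM), Tnfrsf26 (1.00 ± 1.42 TPM), Fas (0.763 ± 0.318 TPM) and Tnfrsf10b (0.0346 ± 0.0489 TPM), with Tnfrsf22 and Tnfsf10 listed at 0. Tnfrsf26 and Fas did not differ beyond their spread. In the control pools the order was Tnfrsf1a (1.79 ± 1.58 TPM), Fas (0.388 ± 0.672 TPM), Tnfrsf22 (0.237 ± 0.381 TPM), Tnfrsf10b (0.0319 ± 0.0347 TPM) and Tnfrsf26 (0.0077 ± 0.0133 TPM), and no 2 neighbours in that order differed beyond their spread. Tnfrsf23 moved from a place shared with Tnfsf10, at 0 counts, to about the level of Tnfrsf1a.

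Of the 7 genes, Tnfrsf23 and Tnfrsf1a reached the 140 counts needed for a test in every library of a condition, and both did so only through the exposed pools. For these 2 genes the libraries of the conditions did not overlap, and no call is given for either. Over the 10055 genes tested by edgeR, 344 (3.42%) were called higher in exposed pools and 186 (1.85%) lower, at an adjusted p-value below 0.1 with a log2 fold change beyond 0.5 in size. For 4017 of the genes tested (40%) the libraries of the conditions did not overlap. Since the 7 genes were chosen from the same contrast, nothing is read from their count against these shares.

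As a description of the pattern for which Tnfrsf23 was chosen, 3 genes had 0 counts in all control libraries and at least 140 counts in both exposed libraries. These were Tnfrsf23, Acod1 (978 and 993 counts) and Hcar2 (1201 and 426 counts). Acod1 makes itaconate and Hcar2 is a receptor for hydroxylated fatty acids, and both are known from activated myeloid cells. With up to 3 counts allowed in each control library, 8 genes had the pattern, of which 2 were odorant receptor genes by their symbols. In the opposite direction, with 3 counts or fewer in both exposed libraries and at least 140 in all control libraries, there was none. That pattern asks for 140 counts in 3 libraries and the first in 2, so the 2 numbers are not alike.

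The 5 tested genes whose level followed that of Tnfrsf23 most closely were Olfr437, Dhdds, Mir132, Srsf6 and Acod1. Likeness was measured by Pearson's r of log2(scaled CPM + 1) over the 5 libraries, and r was 0.9998, 0.9996, 0.9991, 0.999 and 0.9989. With 2 conditions, any gene that moved evenly between them has a high r, and 62 of the other 10054 genes were above 0.99. Of these 5, Acod1 was, like Tnfrsf23, at 0 counts in every control pool, as given above. Olfr437, another odorant receptor gene, had 0, 0 and 1 counts in the control pools and 9513 and 5734 in the exposed pools. Dhdds, an enzyme of dolichol synthesis, was present at rest with 2669, 3019 and 2923 counts and had 7847 and 7395 after exposure. Mir132, a microRNA gene known to be induced by neuronal activity, had 13, 10 and 12 counts in control and 154 and 141 in exposed pools. Srsf6, which encodes a splicing factor, had 6945 to 7830 counts in control and 9274 to 9877 in exposed pools.

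The surroundings of the cluster were examined next, to see whether the genes beside Tnfrsf23 differed between the conditions. The 3 clustered genes span 78.2 kb, and 24 other genes lie within 300 kb of them. This stretch belongs to the imprinted domain of distal chromosome 7, in which genes such as Cdkn1c, Phlda2 and Slc22a18 are transcribed mainly from the maternal copy. Of the 24 neighbours, 9 had 0 counts in all libraries and 6 reached the count needed for a test, of which edgeR called 1 higher, beside 3.42% of all genes tested. The neighbour on the promoter side of Tnfrsf23 is Osbpl5, an oxysterol-binding protein gene. It had 13739, 21682 and 18045 counts in control and 19461 and 22121 in exposed pools, and was not called (log2 fold change 0.36, SE 0.17, edgeR adjusted p = 0.314).

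The gene called was Cars, which encodes the cysteinyl-tRNA synthetase and lies on the far side of Tnfrsf26. It had 2756, 3145 and 2999 counts in control and 5491 and 4562 in exposed pools. The difference was 0.89 on the log2 scale (SE 0.18, edgeR adjusted p = 0.0562), and its exposed and control pools did not overlap, as for 40% of all genes tested. Beyond Cars, the histone chaperone gene Nap1l4 had 9957 to 11385 counts in control and 10749 and 11367 in exposed pools, with a log2 fold change of 0.17 (SE 0.13, edgeR adjusted p = 0.544). Cdkn1c, a cell cycle inhibitor, had 214, 120 and 108 counts in control and 209 and 345 in exposed pools, and the conditions overlapped (log2 fold change 1.02, SE 0.59, edgeR adjusted p = 0.397). It was tested only through the exposed pools. Nadsyn1 and Dhcr7, enzymes of NAD and cholesterol synthesis, were not called either (edgeR adjusted p = 0.77 and 0.891). Phlda2 was seen in control pool 1 alone, with 45 counts, and Slc22a18 in control pool 2 and exposed pool 1, with 48 and 20 counts.

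A pair of neighbours too low for a test was seen almost only in exposed pools, with no count above 80. Among genes with 80 to 120 counts, 3 counts or fewer in another library of the same condition were frequent, as given above. The counts of this pair lie at or below the lower end of that range. The share of all genes with such a pattern at these counts was not computed. Mrgpre, a gene for a Mas-related G protein-coupled receptor on the promoter side of Tnfrsf23 beyond Osbpl5, had 0, 1 and 0 counts in control and 77 and 80 in exposed pools. The long noncoding RNA gene E230032D23Rik lies on the opposite strand across the whole of Tnfrsf22, the start of Tnfrsf26 and the last part of Tnfrsf23, and had 0 counts in every control pool and 21 and 11 in the exposed pools. It shares 164 exonic bases (4.14%) with Tnfrsf23, 107 (3.33%) with Tnfrsf26 and none with Tnfrsf22. Counting did not use the strand, so reads of a gene and of its antisense partner cannot be told apart where their exons overlap.

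**Figure D2:**
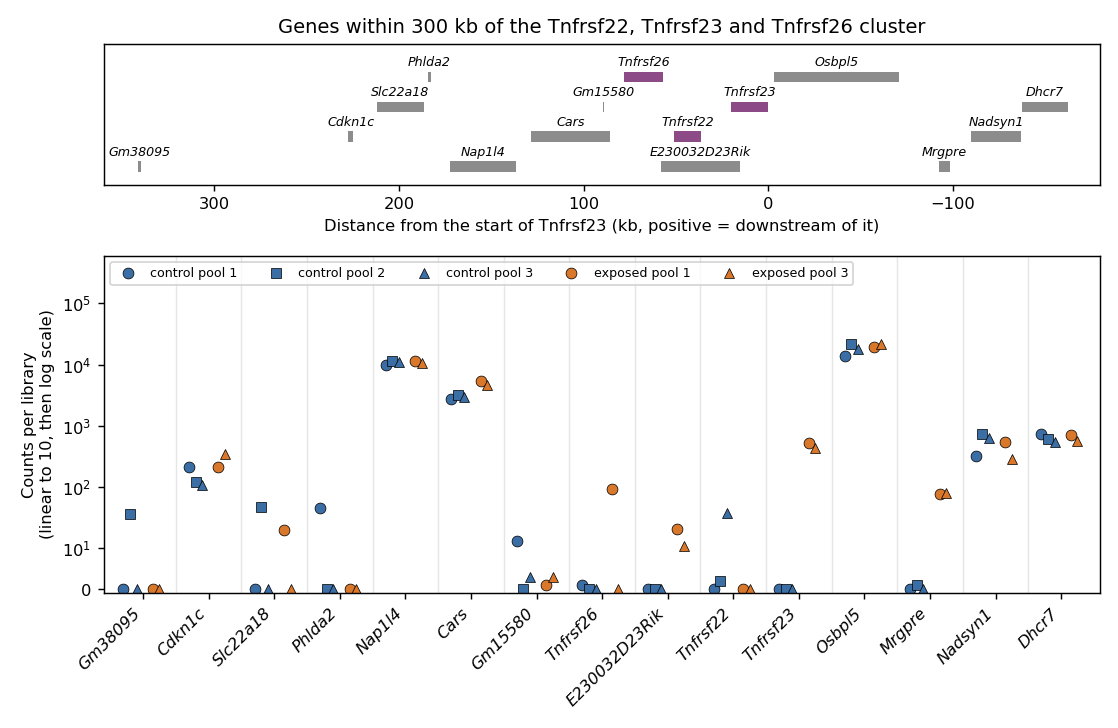
Genes within 300 kb of the cluster that had more than 10 counts in some library, drawn to scale by their distance from the start of Tnfrsf23 in kb (top, clustered genes in purple) and by their counts in each library on an axis linear up to 10 and logarithmic above it (bottom). Control pools are blue and exposed pools orange. Tnfrsf23, Tnfrsf26, Mrgpre and E230032D23Rik are at 0 or 1 counts in every control pool, and Tnfrsf26 is also at 0 in exposed pool 3. Cars is higher in both exposed pools, and Osbpl5, Nap1l4, Nadsyn1 and Dhcr7 were not called.

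Because Tnfrsf23 was without counted reads in all control pools and present in both exposed pools, its start region is shown. The RefSeq promoter sequence (GRCm38.p6, chr7:143685826-143686125, minus strand) runs from 250 bases before to 50 bases after the annotated start, 5′ to 3′. Capitals mark the reverse complement of the core site TGACG of the cyclic AMP response element, 184 to 180 bases before the start.
Tnfrsf23 promoter: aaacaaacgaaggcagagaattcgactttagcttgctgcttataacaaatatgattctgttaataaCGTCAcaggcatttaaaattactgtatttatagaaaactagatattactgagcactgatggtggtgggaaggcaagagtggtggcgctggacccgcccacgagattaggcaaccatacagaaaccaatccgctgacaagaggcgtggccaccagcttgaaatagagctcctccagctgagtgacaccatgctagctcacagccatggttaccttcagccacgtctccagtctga

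Promoter sequences were found for 4 of the 7 genes, Tnfrsf23, Tnfsf10, Tnfrsf1a and Fas, and were searched on both strands for 5 motifs. The core site TGACG, which also lies inside the full element TGACGTCA, was present in 20.8% of all 32851 RefSeq promoters of the same 300 bases, and among these genes in Tnfrsf23 and Tnfsf10. The full element was in 1.79% of all promoters and in none of the 4. The AP-1 motif TGANTCA was in 7.81% of all promoters and, of the 4, in Fas, as TGAGTCA. The NF-kB motif GGGNNNTTCC was in 5.56% of all promoters and in none of the 4. The TATA motif TATAAA was in 13.6% of all promoters, and Tnfrsf23 held it on the opposite strand 158 to 153 bases before the start. Tnfrsf1a held none of the motifs. A match is a run of letters and not a binding site.

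The genes through which these receptors act were then compared between the conditions, as 5 lists of 88 genes, of which 41 were tested. edgeR called 3 of the 41 higher in exposed pools and none lower, beside 3.42% and 1.85% of all genes tested. At an unadjusted p under 0.05 there were 6 higher and none lower, and DESeq2 called 4 higher and none lower. Of these 6, Birc3, Tab2 and Trp53 passed the count filter only through the exposed pools, where they were high. The number of genes higher is therefore partly set by the filter. Over all genes tested, 842 (8.37%) were higher and 942 (9.37%) lower at an unadjusted p under 0.05, and DESeq2 called 725 (7.21%) higher and 769 (7.65%) lower, so its 4 of 41 were near the share of all genes. The median log2 fold change of the 41 genes was 0.31, beside -0.03 over all genes tested. Further genes of the lists passed the filter only through the exposed pools, and fewer only through the control pools. This median and those of the single lists below are therefore also partly set by the filter.

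Of the adaptors, caspases and inhibitors that act below death receptors, 14 of 22 were tested and edgeR and DESeq2 called none. At an unadjusted p under 0.05, 1 gene was higher and none lower, beside 8.37% and 9.37% of all genes tested. Their median log2 fold change was -0.05. Among those with the highest levels were Traf3, an adaptor, and Casp6, a caspase. Casp6 had 4224 to 4410 counts in control and 3811 and 3998 in exposed pools (log2 fold change -0.02, SE 0.18, edgeR adjusted p = 0.967). For Traf3 the log2 fold change was -0.36 (SE 0.38, edgeR adjusted p = 0.665). The first steps below the TRAIL receptor were at low counts. Fadd had 13 to 71 counts in control and 44 and 72 in exposed pools, and Casp8 had 121, 0 and 0 in control and 3 in each exposed pool. Birc3, an inhibitor of apoptosis that is a known NF-kB target, had 42, 30 and 0 counts in control and 189 and 264 in exposed pools. It was not called (log2 fold change 3.35, SE 1.35, edgeR adjusted p = 0.248) and was tested only through the exposed pools.

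Of 22 other receptors of the TNF superfamily, 3 were tested. edgeR and DESeq2 called none, and none had an unadjusted p under 0.05. The highest was Tnfrsf21 (death receptor 6), which carries a death domain and is known in neurons. It had 40883, 45667 and 46181 counts in control and 39949 and 42784 in exposed pools, which overlapped (log2 fold change 0.03, SE 0.12, edgeR adjusted p = 0.911). Control pools held it at 799 ± 55.4 TPM (SD, n = 3) and exposed pools at 730 ± 79.2 TPM (SD, n = 2), beside 8.84 TPM for Tnfrsf23 and 9.92 TPM for Tnfrsf1a in the exposed pools. Tnfrsf12a, the receptor for TWEAK, had 367, 453 and 670 counts in control and 1311 and 483 in exposed pools (log2 fold change 0.98, SE 0.51, edgeR adjusted p = 0.344). Without exposed pool 1 its log2 fold change was 0.099 and without exposed pool 3 it was 1.49. Tnfrsf1b, the second Tnf receptor, had 426, 63 and 106 counts in control and 609 and 287 in exposed pools (log2 fold change 1.24, SE 0.89, edgeR adjusted p = 0.495). It was tested only through the exposed pools. Its log2 fold change was 2.57 without control pool 1 and 0.61 without exposed pool 1. Tnfrsf11b (osteoprotegerin), a soluble receptor that can also bind TRAIL, had 0 counts in all 5 libraries.

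None of the 17 other ligands of the family reached the count for a test, and 6 had 0 counts in all libraries. Fasl, the ligand of Fas, was among the latter. Tnf, the ligand of Tnfrsf1a, had 0 counts in every control pool, 1 in exposed pool 1 and 368 in exposed pool 3. Lta, which also binds Tnfrsf1a, had 65 counts in control pool 1, 56 in exposed pool 1 and 0 in the other 3 libraries. Of TRAIL, Fasl and Tnf, only Tnf was thus seen, above 3 counts in 1 pool.

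In the NF-kB list, 14 of 16 genes were tested, with a median log2 fold change of 0.28. Of the 14, 1 was called higher by edgeR and none lower, beside 3.42% and 1.85% of all genes tested. At an unadjusted p under 0.05 there were 2 higher and none lower, beside 8.37% and 9.37% of all genes, and DESeq2 called 1 higher and none lower, beside 7.21% and 7.65%. The gene called was Nfkbia, which encodes the inhibitor IkB-alpha and is itself a target of NF-kB. It had 3921, 3081 and 3402 counts in control and 11043 and 9707 in exposed pools (log2 fold change 1.70, SE 0.20, edgeR adjusted p = 0.00922). Rela, the transactivating subunit, had 3722 to 4984 counts in control and 4814 and 5465 in exposed pools (log2 fold change 0.41, SE 0.20, edgeR adjusted p = 0.327). Nfkbib, a second inhibitor, was not called (log2 fold change 0.20, SE 0.20, edgeR adjusted p = 0.627). Tab2, the other gene higher at an unadjusted p under 0.05, was tested only through the exposed pools.

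Among p53 and its target genes, which include known regulators of death receptor genes and of growth arrest, 10 of 11 were tested. Of these, edgeR called 2 higher and none lower, beside 3.42% and 1.85% of all genes tested. The median log2 fold change of the 10 was 0.43. At an unadjusted p under 0.05 there were 3 higher and none lower, beside the same 8.37% and 9.37% of all genes, and DESeq2 called 3 higher and none lower, beside 7.21% and 7.65%. Cdkn1a, the cell cycle inhibitor p21, had 8626, 5947 and 8661 counts in control and 45789 and 36038 in exposed pools (log2 fold change 2.52, SE 0.24, edgeR adjusted p = 0.0046). Sesn2, a stress-induced regulator of growth signalling, had 1094, 1249 and 975 counts in control and 3253 and 2195 in exposed pools (log2 fold change 1.43, SE 0.27, edgeR adjusted p = 0.0444). Both genes are also known targets of other stress pathways. Mdm2, a p53 target and its main inhibitor, had a log2 fold change of 0.07 (SE 0.26, edgeR adjusted p = 0.912). For Ccng1, also a p53 target, the log2 fold change was -0.48 (SE 0.18, edgeR adjusted p = 0.223). Trp53, the gene of p53 itself, had 106, 232 and 360 counts in control and 899 and 648 in exposed pools. It was not called (log2 fold change 1.87, SE 0.55, edgeR adjusted p = 0.142) and was tested only through the exposed pools. Gadd45a went the other way and was not called (log2 fold change -1.07, SE 0.54, edgeR adjusted p = 0.336). It was tested only through the control pools.

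**Figure D3:**
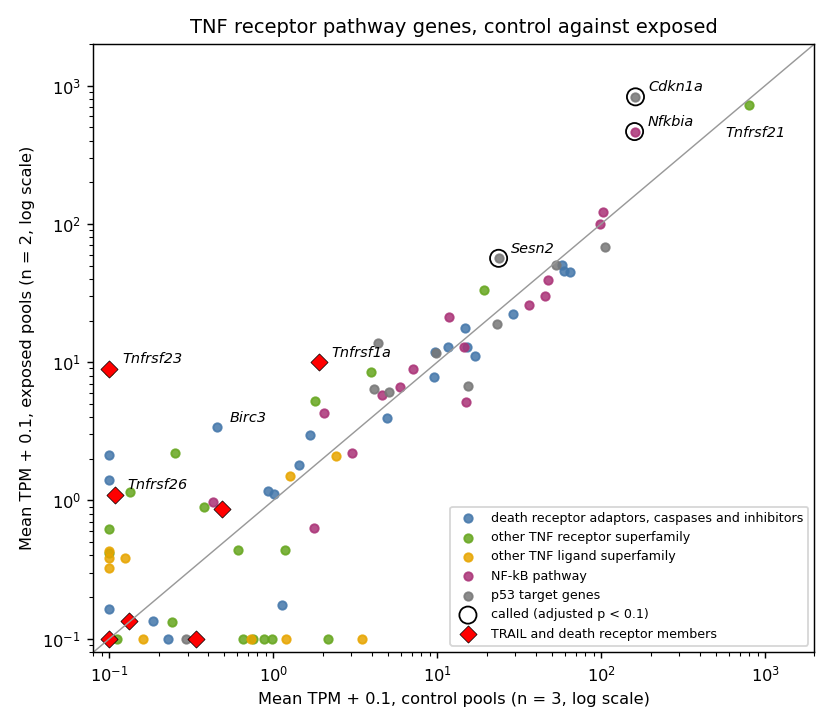
Mean TPM + 0.1 of the 7 genes (red diamonds) and of the 88 genes of the 5 pathway lists (points, coloured by list) in the 3 control pools (x axis) and the 2 exposed pools (y axis), both on log scales, with the line of equal levels in grey. Circled points are the 3 genes called, Cdkn1a, Nfkbia and Sesn2. Tnfrsf23 lies at the left edge, where control pools are at 0, and covers the point of Tnf, while Tnfrsf21 lies near the line.

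The sorted cells carried transcripts of mature olfactory neurons. Olfr151 had 139703 to 166294 counts in control and 97297 and 103864 in exposed pools, and was not called (log2 fold change -0.47, SE 0.12, edgeR adjusted p = 0.101). The 7 mature olfactory neuron markers, Omp among them, summed to 57264 to 61471 scaled CPM in control and 49935 and 50718 in exposed pools. Of the 7, edgeR called none higher and Cnga2 and Cnga4 lower, beside 3.42% and 1.85% of all genes tested. Of the 3 immature neuron markers, Gap43 was called higher and Stmn4 lower, beside the same shares. Erythroid markers summed to 295, 95.6 and 10.7 scaled CPM in control and 12.3 and 5.34 in exposed pools. Transcripts of other cells were present at far lower levels, and those of myeloid cells are given beside the receptors because members of this receptor family are widely used by immune cells. The 13 myeloid markers summed to 173 scaled CPM in control pool 1, 22.9 in control pool 2, 16.9 in control pool 3, 151 in exposed pool 1 and 69.1 in exposed pool 3. Of the 13, 4 were tested, and 1 was called higher and none lower, beside the same 3.42% and 1.85% of all genes tested. The gene called was Fcer1g, an immune receptor subunit (241, 107 and 74 counts in control and 776 and 851 in exposed pools, log2 fold change 2.63, SE 0.61, edgeR adjusted p = 0.0807).

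The myeloid markers differed among themselves in their order over the pools. Control pool 1 had the highest marker sum of all pools and 0 counts of Tnfrsf23 and of Tnfrsf1a. In that pool the macrophage markers Csf1r and Adgre1 had 866 and 587 counts. In control pools 2 and 3 both were at 0. In the exposed pools Csf1r had 788 and 66 counts and Adgre1 was at 0 in both. Ptprc (CD45), which marks all white blood cells, had 0, 54 and 1 counts in control and 542 and 517 in exposed pools, an order like that of Tnfrsf23. It was not called (log2 fold change 5.05, SE 1.71, edgeR adjusted p = 0.191). Tyrobp, another of the markers, had 538, 123 and 67 counts in control and 1026 and 797 in exposed pools. It was not called either (log2 fold change 1.98, SE 0.89, edgeR adjusted p = 0.297). For Ptprc, Tyrobp and Fcer1g the conditions did not overlap, as for 40% of the genes tested. Ptprc and Tyrobp, like Fcer1g, were tested only through the exposed pools. For the other myeloid markers the conditions overlapped. C1qb, C1qc, Cx3cr1 and Aif1 were highest in control pool 1 and had lower means in exposed than in control pools. Lyz2 had 2728, 530 and 534 counts in control and 2471 and 423 in exposed pools (log2 fold change 0.26, SE 1.01, edgeR adjusted p = 0.923). The exposed means of C1qa, Cd68 and Itgam were not below their control means. The 3 neutrophil markers summed to 1.47 to 8.98 scaled CPM in control and 7.39 and 16.7 in exposed pools, and S100a9 had 94, 45 and 181 counts in control and 398 and 249 in exposed pools. Ly6g had 79 counts in control pool 3 and 3 or fewer in every other pool. The part of these cells in the values of Tnfrsf23 and Tnfrsf1a was not tested.

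**Figure D4:**
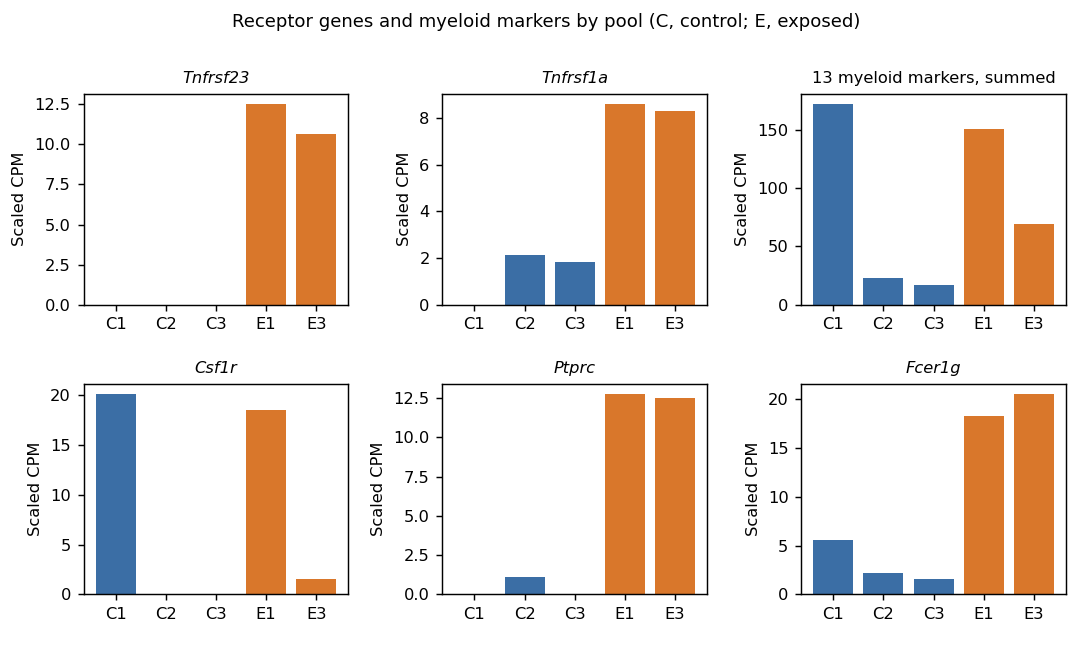
Scaled CPM in each pool (C1 to C3, control, blue; E1 and E3, exposed, orange) of Tnfrsf23, Tnfrsf1a, the 13 myeloid markers summed, and the markers Csf1r, Ptprc and Fcer1g, with each axis starting at 0. The marker sum and Csf1r are highest in control pool 1, where both receptors are at 0, while Ptprc and Fcer1g are higher in both exposed pools than in any control pool.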

How the data were processed

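FACS-sorted Olfr151 neurons were profiled by polyadenylated RNA sequencing in 3 control and 2 exposed pools of 4 mice, assigned by their labels. The authors mapped single reads of 50 bases with STAR 2.7.0a to GRCm38 and deposited raw read counts per gene from featureCounts 1.6.3, without strand and without multi-mapping reads, so near-identical genes are undercounted. Of 55411 gene rows, 55144 were named. The comparison used edgeR 4.0.16 in R 4.3.3 (TMM scaling, robust quasi-likelihood test, two-sided, Benjamini-Hochberg adjustment over 10055 genes). A gene was tested where all libraries of a condition held 140 counts or more, a threshold set at the dip in the distribution of log2 counts. Scaled CPM and TPM were computed from the counts, TPM with the deposited exon lengths.

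The 7 genes and all lists were chosen with earlier results of these data known. Genes named are the 7, their neighbours, the called and the 3 highest genes of each pathway list, the 5 closest in pattern to Tnfrsf23, and markers. Birc3, Fadd, Casp8, Tnfrsf11b, Fasl, Lta, Tnf, Tab2, Trp53 and Gadd45a, as well as Hcar2, were named after their values were seen. Values of 1 further gene among the highest are left out of the text. On simulated data with 50 of the 10055 genes changed by each fold, 18% of 2-fold and 80% of 4-fold changes were recovered, with 23 false calls. Alternatives were other scalings, filters and thresholds, DESeq2 1.42.0, the pool number as a block, and the removal of single libraries.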

Additional observations from a re-analysis of the deposited data

How the results depend on the processing

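The number of genes called higher and lower, 344 and 186, moved by over 1.5 times under several alternatives. It was 94 and 49 with spike-in scaling, under which the median over all genes was -0.23 on the log2 scale, 725 and 769 with DESeq2's Wald test, 162 and 74 with edgeR's filterByExpr, and 190 and 90 at an adjusted p under 0.05. Leaving out 1 library gave 93 to 348 higher and 19 to 429 lower: 160 and 64 without control pool 2, 348 and 429 without control pool 3, 93 and 19 without exposed pool 1, and 109 and 78 without exposed pool 3. Mice of both conditions were handled on the same 3 days, but the labels do not say whether a pool number marks a day. Deviations of same-numbered pools correlated with r = 0.05 and -0.08. With 2 exposed pools these deviations mirror each other, so this check does not settle whether the numbers pair the pools. With a replicate block, edgeR called 11 genes higher and 0 lower (724 and 536 at an unadjusted p under 0.05), and 1 of the 3 pathway genes, Cdkn1a, stayed called. Cdkn1a was called under all 12 alternatives. Nfkbia was not called with spike-in scaling (adjusted p = 0.631) or the block (0.131), nor was Sesn2 (0.9996 and 0.235), which was also lost without control pool 2, exposed pool 1 or exposed pool 3 (0.13, 0.332 and 0.105). The log2 fold change of Tnfrsf1a was 2.10 to 4.92, the latter with the block. No fitted fold is given for Tnfrsf23, since with all control pools at 0 it depends on the prior count. Genes near 0 changed sign. Leaving out 1 library moved Traf3 between -1.10 and 0.11, Casp6 between -0.073 and 0.050, Tnfrsf21 between -0.061 and 0.093 and Mdm2 between -0.35 and 0.38. The sign also changed for Casp6 with no filter (0.0029), for Tnfrsf21 (-0.16) and Mdm2 (-0.0079) with spike-in scaling and for Mdm2 (-0.036) with the block. The cause of these changes was not tested. With 2 exposed pools, the spread within that condition rests on 1 difference per gene.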

Other observations

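Several genes of the TNF family and of its signalling were seen in a single pool. Ripk3 and Mlkl, the kinase and the effector of necroptosis, had 86 and 134 counts in exposed pool 1 and 0 in the other 4 libraries. Tnfrsf14, a receptor of lymphoid and myeloid cells, had 44 counts in exposed pool 1 and at most 1 in any other library. In control pool 1, Tnfsf8 and Tnfsf9, ligands of activated immune cells, had 168 and 176 counts, and both were at 0 elsewhere. Tnfrsf11a, the receptor for RANKL, had 189 counts in the same pool and 0 in the others. Tnfrsf8 was at 123 counts in control pool 3 alone. None of these genes reached the count for a test.

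Ltbr, the lymphotoxin beta receptor, had 7, 71 and 83 counts in control and 210 and 130 in exposed pools. Tnfrsf9 had 0, 17 and 0 counts in control and 129 and 34 in exposed pools. The conditions did not overlap for either gene, and neither was tested. The same held for 40% of the genes tested, but the share among genes too low for a test was not computed. These genes were named after their values were seen.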
